A study of Gossypium hirsutum with 6 samples.

Results

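A group of 66 assembled transcripts of upland cotton stem apex was lower in both of the plant height mutants than in their wild type. Members were taken from the 156846 transcripts listed in the mRNA files by 3 conditions on RPKM (reads normalised to transcript length and to the library's total): a mean over the 3 libraries of 10 or more, a level in the dwarf mutant of 0.5 times the wild type or less, and a level in the tall-culm mutant of 0.5 times the wild type or less. Of all transcripts, 15098 met the condition on the mean, and the 66 made up 0.437% of these. Since the ratios to the wild type chose the members, those ratios are given below as a description and without a test.

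The plants were Gossypium hirsutum, sampled at the stem apex when the fifth true leaf was out. A1 was the dwarf mutant line Ari1327, A3 was the tall-culm mutant line Ari3697 and A9 was Ari971, the wild type from which both mutants had been obtained by gamma irradiation. Each line gave 1 mRNA library, so no spread between plants of a line can be given, no p-value was computed, and a difference between lines cannot be told apart from a difference between libraries. Each mutant type was a single line, and irradiated lines can carry further mutations. The study's methods speak of pooling RNA before the libraries were made, whereas the labels assign every library to a line, and the labels were followed. Both ratios of a member were taken over the same A9 library, so a value that happened to be high in A9 would lower both of them. The files carry transcript names and no gene names, so the stem apex could not be checked by its marker genes.

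The shoot apex holds the meristem that makes new stem tissue, and the growth of the internodes below it, by cell division and cell elongation under the control of gibberellins, brassinosteroids and auxin, sets the height of a plant. A transcript assembly made without a genome groups similar contigs into components. Contigs of a component can be splice forms or alleles of a gene, or, in an allotetraploid such as upland cotton, copies of it from both subgenomes. They share sequence, and reads can be assigned to more than one of them. In the names used here the component is all that stands before the last part, so comp40149_c1_seq2 is a transcript of component comp40149_c1. The 66 members came from 52 components, out of 70875 components in the files.

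The sequences of the transcripts were in none of the files used here. The only sequences that touched the lowered group were those of 2 miRNAs with a predicted target in it or beside it, and these are shown because they carry its only functional annotation. Capitals mark the seed, bases 2 to 8 from the 5′ end and are written in DNA letters:
ghr-miR482a: tCTTTCCTactcctcccatacc
ath-miR858b: tTCGTTGTctgttcgaccttg
The miR482 family is best known in plants for cleaving transcripts of disease resistance genes, and miR858 for cleaving transcripts of MYB transcription factors in Arabidopsis. The marked bases differ between the 2 miRNAs. The paper describes plant miRNAs as pairing almost perfectly with their targets, which is not limited to these bases. ghr-miR482a was listed against a member, comp38135_c0_seq1, annotated as peptidyl-prolyl cis-trans isomerase B (cyclophilin B), an enzyme that helps proteins to fold in the secretory pathway. Its levels were 13.5 RPKM in A1, 13.7 in A3 and 27.6 in the wild type. Both mutants were thus alike and close to the threshold, with ratios to A9 of 0.490 and 0.497. ath-miR858b was listed against comp39508_c0_seq13, annotated as a plant MYB protein, a class of DNA-binding regulators. That transcript is not a member, but it lies in the same component as the member comp39508_c0_seq3. It stood at 3.88 RPKM in A1, 1.56 in A3 and 2.59 in A9, higher than the wild type in the dwarf mutant and lower in the tall-culm mutant. These levels are low, and no counting interval was computed for them. The sum of the component was 0.606 times the wild type in A1 and 0.441 in A3. The member comp39508_c0_seq3 stood at 8.06, 7.12 and 18.2 RPKM. The miRNA levels themselves were not analysed here, and the predictions were not tested. No other member had a function, a pathway or a predicted miRNA in the study's lists, so 65 of the 66 are known here by name alone.

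Lists of named genes were set beside the group, taken by keyword from the same annotation. That annotation comes from the study's lists of predicted miRNA targets, so genes outside them were not examined. Among 512 transcripts with an entry, 121 had a mean of 10 RPKM or more, and 1 of these, the cyclophilin transcript, was lowered in both mutants. The share lowered in both among all transcripts at this level was 0.437%. The hormone genes in these lists had 4 transcripts above the minimum of 13 listed, and 0 of them were lowered in both mutants. The hormone pathway genes that the paper discusses, such as SAUR and GH3, were not looked up. Transcription factors had 2 of 14 above the minimum, genes of the cell wall 3 of 7, ribosomal genes 8 of 12, defense genes 2 of 10 and photosynthesis genes 11 of 14. In each of these lists 0 transcripts were lowered in both mutants. A single photosynthesis transcript of the 11 was lowered in A1, where 1.40% of all transcripts at this level were, and 0 were lowered in A3, where 0.841% were. With so few transcripts above the minimum, the lists have little power to show a share of this size.

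**Figure D1:**
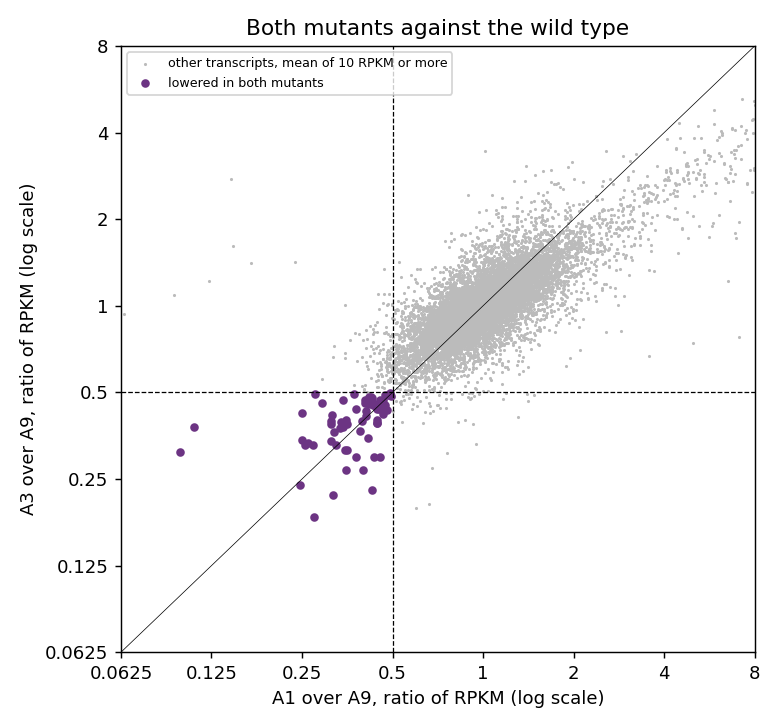
Ratio of RPKM in A1 to A9 (x axis) against that in A3 to A9 (y axis), both on log scales, for transcripts with a mean of 10 RPKM or more in 1 library per line. The 66 lowered transcripts fill the corner below the dashed lines at 0.5, which the rule fixes, and 118 transcripts outside the axes or with a ratio of 0 are not drawn.

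The lowered transcripts were well expressed in the wild type and of middle rank in the mutants. The rule fixes that A9 is the highest of the 3 libraries, so the values below describe the selected group. Their RPKM in A9 ran from 16.4 over a median of 46.4 to 548. In A1 it ran from 3.38 over 16.5 to 264.6, and in A3 from 6.51 over 16.1 to 269. Among the transcripts with a mean of 10 RPKM or more, the members' median stood at percentile 86.4 in A9, but at 44.5 in A1 and 43.4 in A3. A level of 50 RPKM or more was reached by 30 members in A9, by 10 in A1 and by 11 in A3. A level of 100 RPKM or more was reached by 11 members in A9 and by 2 in each mutant. Summed over the group, RPKM was 4777 in A9, 1853 in A1 and 1924 in A3, which is 0.597%, 0.230% and 0.241% of all RPKM in the library. The libraries' total RPKM was 805778 for A1, 798674 for A3 and 800227 for the wild type, so the sums compare libraries of nearly the same total.

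None of the members was silent in a mutant. Both mutants kept 10 RPKM or more in 42 members, 1 mutant fell under that level in 8, and both did in 16. The ratio of A1 to A9 had a median of 0.402, with the middle 50 percent of members between 0.321 and 0.442. For A3 to A9 the median was 0.407 and the middle 50 percent lay between 0.341 and 0.460. On the log2 scale the median differences from A9 were −1.31 in A1 and −1.30 in A3, while over all transcripts at this level they were −0.02 and −0.00. Both ratios lay between 0.4 and 0.5 in 27 members. A level of 0.25 times the wild type or less was seen in 3 members in A1, in 4 in A3, and in 1 member in both.

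The share of transcripts that met both ratio conditions differed with the level. It was 0.310% (27 of 8707) at a mean of 10 to 20 RPKM and 0.556% (25 of 4497) at 20 to 50 RPKM. It was 0.648% (8 of 1235) at 50 to 100 RPKM and 0.910% (6 of 659) at 100 RPKM or more. For A1 alone 211 of 15098 transcripts (1.40%) met the ratio condition, and for A3 alone 127 (0.841%). The 66 members are thus 31.3% of the first list and 52.0% of the second, an overlap to which the shared A9 library contributes.

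**Figure D2:**
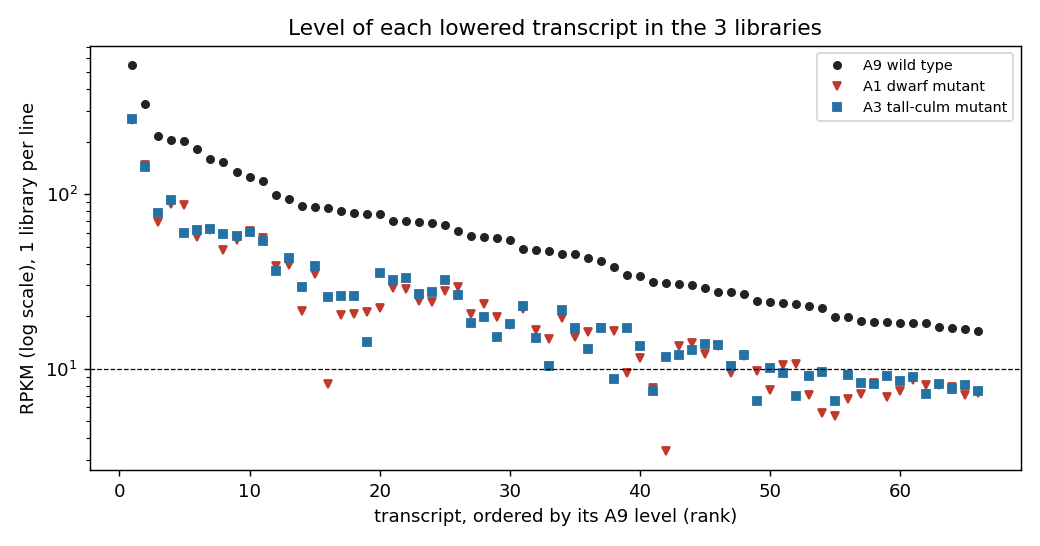
RPKM on a log scale (y axis) of each of the 66 lowered transcripts in A9 (circles), A1 (triangles) and A3 (squares), ordered by the A9 level (x axis), with the minimum of 10 RPKM dashed. A9 runs from 16.4 to 548 and lies above both mutants at every rank, which the rule fixes, while the symbols of the mutants mostly lie close together.

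The most abundant member was comp21653_c0_seq2, at 264.6 RPKM in A1, 269 in A3 and 548 in A9. Both mutants were at nearly the same level, a little under the limit of 0.5 times the wild type. The other transcript of its component, comp21653_c0_seq1, was at 62.6, 63.1 and 158 RPKM, with lower ratios to A9 of 0.396 and 0.398. The summed level of the component was 0.463 times the wild type in A1 and 0.470 in A3. Next in level came comp21512_c0_seq1, the only transcript of its component, at 148, 143 and 327 RPKM. It was followed by comp30280_c0_seq1, also alone in its component, at 68.9, 78.5 and 215 RPKM. These single-transcript components share no reads with a listed sister, and both mutants again lay close together.

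Further down, comp31534_c0_seq1 was at 86.7 RPKM in A1, 59.6 in A3 and 200.5 in the wild type, the clearest case among the abundant members of a deeper fall in the tall-culm mutant. For comp12997_c0_seq1 the levels were 56.9, 62.1 and 183 RPKM. For comp17660_c0_seq1 they were 47.8, 59.4 and 153 RPKM, here with the lower value in the dwarf mutant. A pair of members completed the upper end with mutants nearly equal. They were comp21852_c0_seq1 at 54.9, 57.6 and 134 RPKM, and comp15232_c0_seq1 at 61.8, 60.6 and 125 RPKM, the latter just inside the threshold in both comparisons.

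Of the 10 members whose larger ratio to A9 was smallest, 8 were above the members' median level in A9, and 4 of the 10 were transcripts of comp40149_c1, described below. Only comp32266_c0_seq1 was at 0.25 times the wild type or less in both, with 7.73 RPKM in A1, 7.47 in A3 and 31.5 in A9. Its ratios were 0.246 and 0.238. In comp30431_c1_seq1 the levels were 14.9, 10.4 and 47.1 RPKM, and in comp37138_c0_seq1 they were 5.37, 6.51 and 19.8 RPKM. The larger ratio to A9 was 0.316 in the former and 0.329 in the latter. The deepest fall in A3 was in comp38017_c1_seq3, at 21.2, 14.3 and 77.0 RPKM, a ratio of 0.185. The deepest in A1 was in comp44455_c0_seq1, at 8.13, 25.8 and 82.8 RPKM, a ratio of 0.0982.

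The precision of these ratios was judged from reads inferred from the values. Per-read steps were sought in the RPKM values of transcripts with a listed length, and of the values low enough to show single steps 88.7% of 71 in A1, 94.1% of 68 in A3 and 89.7% of 68 in A9 were whole multiples of a step within 0.1. Taken as 1 read per step, they give 13879300 reads for A1, 13486200 for A3 and 15071600 for A9. No member had a listed length, so the shortest listed length, 205 bases, was assumed for all of them, and a member shorter than that would have fewer reads. Under this assumption the lowest read number of a member was 51 in A9, 10 in A1 and 18 in A3. Over the 66 members the highest upper bound of the 95% counting interval was 0.782 for A1 to A9 and 0.805 for A3 to A9. The member with the lowest A9 level, comp26496_c0_seq1, had an interval of 0.255 to 0.757 for A1 to A9. These intervals cover the counting of reads only, not the spread between plants, and they describe values that the rule had selected. They treat each step as a separate count. The paper describes paired-end sequencing, and whether a step is a read or a read pair is not known. If mates of a pair, or reads assigned to several transcripts, were counted separately, the intervals are too narrow.

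Values next to the thresholds were close on either side. Just inside the ratio limit were comp34560_c0_seq1, comp15232_c0_seq1 and comp38135_c0_seq1, whose larger ratios were 0.495, 0.496 and 0.497. Just outside it was comp28691_c0_seq1, at 8.85 RPKM in A1, 7.64 in A3 and 17.7 in A9, with a larger ratio of 0.501. Then came comp44562_c0_seq2 at 7.01, 8.56 and 17.1 RPKM, with 0.502, and comp41259_c0_seq1 at 35.1, 36.1 and 71.8 RPKM, with 0.503. By mean level, comp26496_c0_seq1 was just inside at 10.3 RPKM, and comp39259_c0_seq5 was just outside at 9.96 RPKM.

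The rule did not compare the 2 mutants with each other, but it limited the level of each against the same A9 library. The A1 and A3 values compared here are thus the ones that selected the members. The background of all transcripts at this level was not limited in this way, so the background values below are given as a description. The levels of the members in the dwarf and in the tall-culm mutant were mostly alike. The ratio of A1 to A3 had a median of 0.959, with the middle 50 percent between 0.864 and 1.06 and a range from 0.289 to 1.87. Over all transcripts with a mean of 10 RPKM or more the median was 0.997. Within 1.25-fold of each other the mutants lay in 46 of 66 members (69.7%), against 77.0% of all transcripts at this level. A1 was the lower mutant in 43 members (65.2%, exact Clopper-Pearson interval 52.4 to 76.5%), and the background share at this level was 50.6%. The interval covers the counting of members only and treats them as separate, which members of a shared component are not. It does not allow for the selection of both values by the rule, and the part of that selection in the share was not tested. With 1 member per component the share was 63.5% of 52 (49.0 to 76.4%), and with the libraries rescaled by their median ratio it was 60.6% (47.8 to 72.4%). Both of these intervals take in the background share of 50.6%. That share was computed over all transcripts without rescaling and was not recomputed for these 2 settings. The median log2 difference between A1 and A3 was −0.06, against −0.00 over all transcripts at this level.

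**Figure D3:**
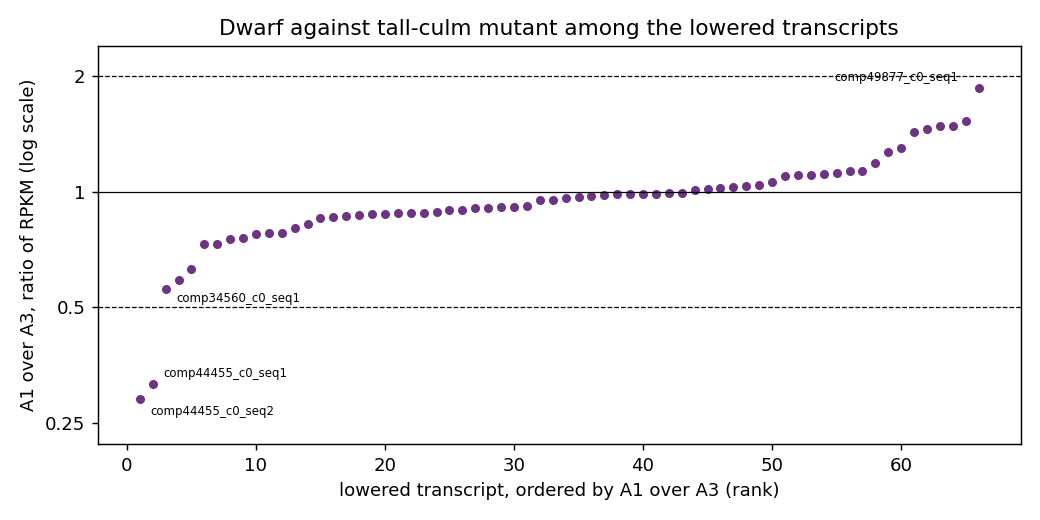
Ratio of RPKM in A1 to A3 on a log scale (y axis) for each lowered transcript, ordered by that ratio (x axis), with lines at 1, 0.5 and 2. Most of the 66 points lie near 1, both transcripts of comp44455_c0 lie below 0.5, and none reaches 2.

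Only 2 members differed 2-fold or more between the mutants, and both belonged to component comp44455_c0. Over all transcripts at this level 0.404% had 0.5 times the A3 level or less in A1, and 1.33% had 2 times or more. In comp44455_c0_seq1 the dwarf mutant stood at 8.13 RPKM against 25.8 in the tall-culm mutant and 82.8 in the wild type. In comp44455_c0_seq2 the levels were 3.38, 11.7 and 30.9 RPKM. The order of the lines, A9 over A3 over A1, was the same in both. Their ratios of A1 to A3 were 0.315 (counting interval 0.188 to 0.510) and 0.289 (0.133 to 0.633). Since the transcripts share a component, they may rest in part on the same reads.

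The next lowest ratios of A1 to A3 were nearer to 1. They were seen in comp34560_c0_seq1, at 9.51 RPKM in A1, 17.1 in A3 and 34.5 in A9, in comp28794_c0_seq1, at 5.61, 9.52 and 22.4 RPKM, and in comp12783_c0_seq1, at 22.4, 35.4 and 76.9 RPKM. The counting interval of the ratio lay below 1 in comp34560_c0_seq1 (0.334 to 0.915) and in comp12783_c0_seq1 (0.456 to 0.878), but not in comp28794_c0_seq1 (0.300 to 1.16). At the other end stood comp49877_c0_seq1, at 16.4, 8.79 and 38.5 RPKM, a ratio of 1.87 (1.14 to 3.25). It was followed by comp10599_c0_seq1 at 10.7, 6.99 and 23.5 RPKM, a ratio of 1.53 whose interval took in 1 (0.836 to 2.88). In comp31534_c0_seq1, with its higher level, the ratio of 1.45 had an interval of 1.19 to 1.78. The counting intervals of A1 to A3 given here and above rest on the assumed length of 205 bases. The transcripts were picked for their extreme ratios, so an interval that leaves out 1 is no test of a difference. A ratio of 1.5 or more was seen in 2 members, and one of 2/3 or less in 5.

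A member was often the only transcript of its component. This held for 33 of 66 members, against 34.8% of transcripts with a mean of 10 RPKM or more and 35.2% of all listed. The difference in share was not tested. Levels of these 33 ran from 16.4 over a median of 38.5 to 327 RPKM in A9, and their median ratios to A9 were 0.410 in A1 and 0.421 in A3. The other 33 members lay in 19 components with further transcripts. In 9 components 2 or more transcripts were members, which took in 23 of the 66.

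Component comp40149_c1 held the most members, with 5 of its 6 transcripts. Their levels in A9 ran from 54.9 to 86.0 RPKM. In A1 they ran from 17.8 to 21.6 RPKM and in A3 from 18.0 to 29.5. The groups of 5 values for the mutants and for the wild type did not overlap. The rule requires a gap for each transcript against its own A9 level, but not across transcripts. Highest in A9 was comp40149_c1_seq4, at 21.6 RPKM in A1, 29.5 in A3 and 86.0 in the wild type. The others were comp40149_c1_seq5 at 20.4, 26.2 and 79.7 RPKM, comp40149_c1_seq3 at 20.6, 26.2 and 78.4, comp40149_c1_seq6 at 20.5, 18.3 and 57.9, and comp40149_c1_seq2 at 17.8, 18.0 and 54.9. The transcript that was not a member, comp40149_c1_seq1, was at 4.44, 5.01 and 14.1 RPKM and failed the minimum level alone. The summed level of the component was 105 RPKM in A1, 123 in A3 and 371 in the wild type, so the whole component was at 0.284 and 0.332 times the wild type.

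In 6 components every transcript was a member, together 14 members. The 3 transcripts of comp31609_c0 were nearly identical in level. They stood at 28.0 to 29.0 RPKM in A1, 32.2 to 33.2 in A3 and 67.0 to 70.6 in A9. The pair of comp37157_c0 was as close, at 24.4, 26.8 and 69.2 RPKM for seq2 and at 24.2, 27.6 and 68.8 for seq1. How reads that match several contigs were counted is not given in the sources used here, and its part in these equal values was not tested.

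The other such components held transcripts of unequal level. In comp12916_c0, seq2 stood at 38.8, 36.5 and 99.5 RPKM and seq1 at 16.3, 12.9 and 43.2. In comp38017_c1, seq3 fell most, as given above, while seq2 was at 29.4, 26.5 and 61.3 RPKM and seq1 at 9.76, 6.56 and 24.4. All 3 transcripts of comp38017_c1 were lower in A3 than in A1, and its sum was 0.371 times the wild type in A1 and 0.291 in A3. The remaining components of this kind were comp21653_c0 and comp44455_c0, described above. In comp44455_c0 the sum was 0.101 times the wild type in A1 and 0.329 in A3, the lowest sum in A1 among the 52 components.

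Most other transcripts of the members' components were not lowered to 0.5 times the wild type or less in both mutants. For those with a mean of 10 RPKM or more the rule fixes this, since a lowered one would be a member. In 13 components, with 19 members, there were 57 other transcripts, and 56 had a mean of 1 RPKM or more. Lowered to 0.5 times the wild type or less in both mutants were 9 of these (16.1%, exact Clopper-Pearson interval 7.62 to 28.3%). The interval treats the 56 as separate, which transcripts of a shared component are not. The background, over all transcripts of that level in components of 2 or more transcripts, was 0.778%. Another 4 were lowered in A1 alone and 3 in A3 alone. Of the same background 2.76% met the limit in A1 and 2.36% in A3, with those lowered in both included. There was 1 transcript raised 2-fold or more in both (background 2.48%), and 39 passed neither limit. A level below A9 in both mutants, of any size, was seen in 34 of the 56 (60.7%), against 35.9% in the background. Their median ratio to A9 was 0.815 in A1 and 0.701 in A3, against 0.994 and 1.01. These transcripts were not chosen by the rule, but they can share reads with a member, and they come from the same 3 libraries.

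Of the 9 lowered transcripts, 5 belonged to comp39508_c0, the component with 20 transcripts and the MYB annotation. Without that component the count was 4 of 37 (10.8%, 3.03 to 25.4%), a choice made after the data were seen. This interval too treats transcripts of a shared component as separate. The largest fall in A3 among these other transcripts was also there, in comp39508_c0_seq17, at 3.42 RPKM in A1, 0.88 in A3 and 8.78 in A9. Its component mate comp39508_c0_seq18 was at 11.4, 8.38 and 15.3 RPKM. Summed, comp39508_c0 was at 71.2, 51.8 and 118 RPKM, that is 0.606 times the wild type in A1 and 0.441 in A3.

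**Figure D4:**
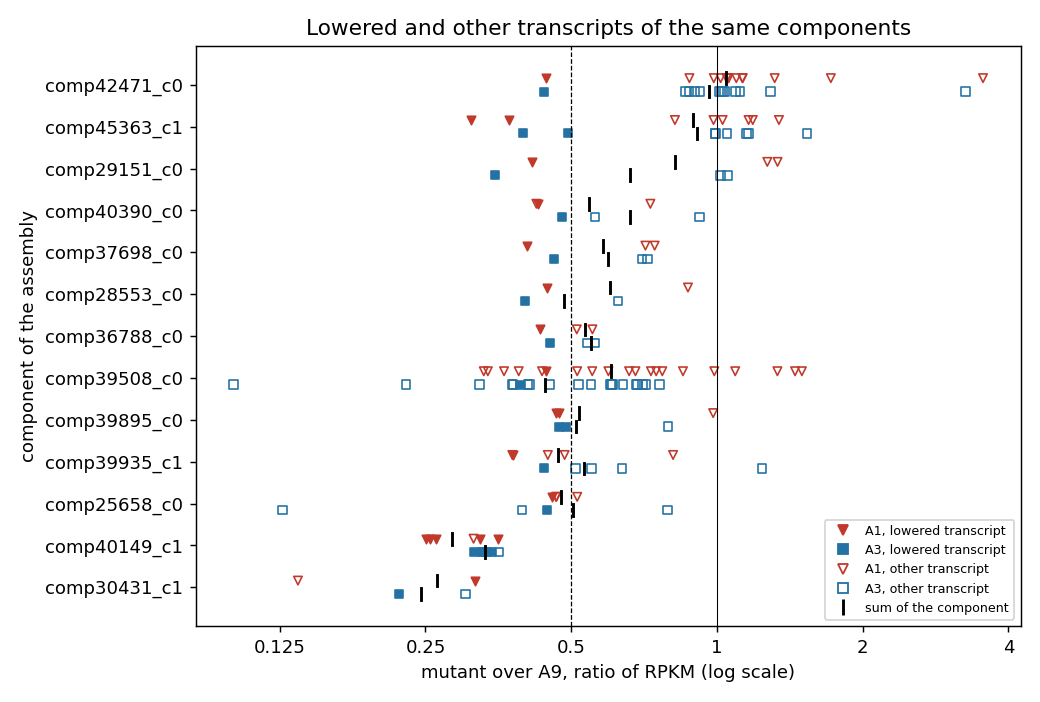
Ratio of RPKM in a mutant to A9 on a log scale (x axis) for the lowered transcripts (filled) and the other transcripts with a mean of 1 RPKM or more (open) of the 13 components that hold both (y axis), with triangles for A1, squares for A3 and black bars for the component's sum. The bars lie below 0.5 in both mutants for 2 components, comp30431_c1 and comp40149_c1, and near 1 for comp42471_c0.

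A fall of the component as a whole was seen in 41 of 52 components, whose summed RPKM was 0.5 times the wild type or less in both mutants. Among all components with a mean sum of 10 RPKM or more, 57 of 15320 (0.372%) met that limit. For the components with 1 transcript the sum is the member itself, and where all transcripts are members the rule decides it. Among the 13 components with other transcripts the limit was met in 2, comp40149_c1 and comp30431_c1, where members made up 96.2% and 70.9% of the A9 sum, so the rule largely set these sums too. The other transcripts summed without the members were at 0.5 times the wild type or less in both mutants in the same 2 components, each with 1 such transcript. In comp40149_c1 this was seq1, given above. In comp30431_c1 the other transcript, seq2, was at 2.64 RPKM in A1, 5.86 in A3 and 19.4 in the wild type, and the sum was at 0.264 and 0.244 times the wild type.

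The most abundant of the 13 components was comp36788_c0, in which all transcripts were lower in both mutants but only the smallest one met the rule. Its member seq3 was at 87.8 RPKM in A1, 92.2 in A3 and 204 in A9. Far higher were seq2, at 1787, 1811 and 3230 RPKM, and seq1, at 1026, 1078 and 1998 RPKM. The sum was 0.534 times the wild type in A1 and 0.549 in A3, so this component fell short of the limit while the order of the lines was the same in all 3 transcripts. In comp39895_c0 the sum was at 0.520 and 0.511, with members seq2 at 8.66, 8.95 and 18.3 RPKM and seq1 at 8.03, 8.15 and 17.3. For comp25658_c0 and comp39935_c1 the sum passed the limit in A1 (0.476 and 0.470) and not in A3 (0.504 and 0.531).

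In 3 components the summed level of the other transcripts was above the wild type in both mutants while the member was lowered. In comp29151_c0 the member seq1 was at 23.4 RPKM in A1, 19.7 in A3 and 56.5 in A9. Its mates seq3, at 35.3, 27.8 and 26.5 RPKM, and seq2, at 26.5, 21.2 and 20.9, were higher in each mutant than in the wild type. The sum was therefore lowered less than the member, to 0.821 and 0.662 times the wild type.

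In comp42471_c0, with 14 transcripts, the sum was near the wild type. Its member seq8 was at 8.24, 8.14 and 18.6 RPKM, while the sum was at 187, 172 and 179 RPKM, or 1.04 and 0.961 times the wild type. It also held the largest rise among the other transcripts, in comp42471_c0_seq6, at 12.8 RPKM in A1, 11.8 in A3 and 3.61 in A9. In comp45363_c1 both members, seq1 at 7.09, 9.08 and 22.8 RPKM and seq6 at 6.91, 9.12 and 18.5 RPKM, stood beside a sum at 0.891 and 0.911 times the wild type. A mate, comp45363_c1_seq5, was higher in both mutants, at 10.5, 11.9 and 7.78 RPKM. For these components a lower member and a lower level of the component were different measurements.

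Components that share a number with a member's component but not the part after it were described as well. There were 26 such transcripts beside 6 of the components, 25 of them with a mean of 1 RPKM or more. Lowered to 0.5 times the wild type or less in both mutants was 1 of the 25, comp30431_c0_seq1, at 2.81 RPKM in A1, 1.36 in A3 and 9.24 in the wild type. The background share at that level was 1.74%. A level below A9 in both mutants, of any size, was seen in 20 of the 25, against 36.0% of all transcripts at that level. The 25 come from only 6 components, whose transcripts can share reads, so they are not separate counts. A component with a transcript lowered in both at a mean of 10 RPKM or more would hold a member. None of that kind could be among the 25, whereas the background includes them.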

How the data were processed

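The authors sequenced mRNA of 1 library per line, assembled the reads with Trinity (release trinityrnaseq_r2012-10-05) and deposited an RPKM value for each transcript, written to 2 decimals. The read mapper and the treatment of reads matching several transcripts are not given in the sources used here. The files were joined by transcript name. Names matched 0 entries of the RefSeq gene table. Small RNA was not analysed here. The members and lists were chosen with earlier results of these data known. Transcripts named in the text were the 10 members highest in A9, the 10 with the smallest larger ratio to A9, the 5 highest and 5 lowest in A1 over A3, all members of components with 2 or more members, annotated members, the 3 nearest on either side of the ratio threshold, and the extremes among other transcripts. Further transcripts and component sums were named after their values were seen, to describe the 13 components with other transcripts. Gene lists came from keywords in the function, GO and pathway entries of the study's additional files, and miRNA sequences from its target list. Shares carry 95% exact Clopper-Pearson intervals. Reads were inferred from 68 to 71 low values per library among 259 transcripts with a listed length, with 1 step taken as 1 read. Alternatives were other minima, ratios, added constants and scalings. The code of the rule was tested on simulated data (seed 1), with falls deeper than those of most members and with counting noise only. That test does not cover differences between plants or libraries. Calculations used pandas 2.3.3 with numpy 2.4.6 under Python 3.11.15, intervals scipy 1.17.1, and figures matplotlib 3.10.9.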

Additional observations from a re-analysis of the deposited data

How the results depend on the processing

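The number of transcripts lowered in both mutants, 66, followed the limits by construction. It was 170 at a minimum mean of 5 RPKM, 39 at 20 RPKM, 148 with the minimum of 10 RPKM set on A9 alone, and 1 at a ratio of 0.25 or less. It was 60 with 1 RPKM added, 66 with 0.1 RPKM added, 65 with scaling by the median ratio and 71 with scaling by the upper quartile. The share of members lower in A1 than in A3 stayed between 60.6% and 65.2%, and the median log2 difference between them at −0.04 to −0.06. The share of other transcripts lowered in both ran from 10.7% to 16.1%, and the count of lowered component sums was 40 or 41. No paired analysis was possible because each line had only 1 library. The reads behind each transcript are known only by inference, since neither transcript lengths of the members nor replicates were at hand.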

Other observations

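The lowered group had a continuation under the minimum level. At any level 5783 transcripts had 0.5 times the wild type or less in both mutants, and 5717 of them had a mean under 10 RPKM. At a mean of 5 to 10 RPKM there were 104 of 16333 (0.637%), against 0.437% at 10 RPKM or more. A further 82 transcripts had 10 RPKM or more in A9 and were left out by the mean alone. Fewer reads stand behind such values, and the part of read counting in the higher share was not tested.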
